A study of Triticum aestivum with 23 samples.

Results

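The triple mutant *tabri1-a.3bd* was compared with *TaBRI1-NS*, the null segregant that carries the wild-type form of all 3 *TaBRI1* homoeologues. The comparison used 8 of the 23 RNA-seq libraries of the study, 4 of each genotype, and the 72865 of 266760 genes that had at least 0.5 TPM (a transcript's share of the library, corrected for gene length) in 3 or more of these 8 libraries. RNA came from the whole shoot of seedlings that had reached the second leaf, grown in a controlled chamber under constant light, with several plants pooled in each replicate. *TaBRI1-NS* was selected from a repeatedly backcrossed population in which EMS-induced stop alleles of the 3 homoeologues segregated. The *tabri1-b* and *tabri1-d* alleles are such stop alleles, while *tabri1-a.3* carries an amino acid substitution in the kinase domain. It came from a new round of mutagenesis of the double mutant *tabri1-bd*, followed by a cross to *tabri1-bd*. Each genotype is a single selected line, so other induced mutations that separate the lines cannot be told apart from the *TaBRI1* alleles. The 4 libraries of the wild-type cultivar Cadenza, the parent of the mutant population, served only to mark genes in which *TaBRI1-NS* itself stood away from its parent. No list of shoot marker genes accompanies the identifiers, so the tissue label was not checked against markers.

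BRI1 is a receptor kinase of the plasma membrane that binds brassinosteroids (BRs), steroid hormones that promote cell elongation and shape leaf angle. Binding of the hormone releases the inhibitor BKI1 and recruits the co-receptor BAK1. The signal passes through the kinases BSK1 and CDG1 and the phosphatase BSU1 to the kinase BIN2, which otherwise phosphorylates and restrains BZR transcription factors. In Arabidopsis and rice, active BZR proteins repress the genes of BR synthesis, among them *DWF4*, *CPD* and *BR6ox1*. Wheat is hexaploid and carries most of these genes as A, B and D homoeologues.

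The TPM of the mutated gene was higher in the mutant libraries for every homoeologue. *TaBRI1-A* (TraesCS3A03G0629800, chromosome 3A) was at 6.74, 6.15, 7.61 and 7.11 TPM in *tabri1-a.3bd* and at 4.89, 4.76, 4.41 and 3.90 TPM in *TaBRI1-NS*. For *TaBRI1-B* (TraesCS3B03G0712100, 3B) the levels were 6.02, 5.64, 8.53 and 6.87 TPM in the mutant and 4.52, 3.30, 4.41 and 4.06 TPM in the null segregant. *TaBRI1-D* (TraesCS3D03G0579600, 3D) was at 9.16, 9.71, 11.2 and 10.3 TPM against 7.08, 7.84, 5.73 and 6.71 TPM. The libraries of the genotypes did not overlap for any of the 3 genes, a separation also found in 12.5% of all genes tested. Cadenza lay at 4.82 ± 0.188, 5.20 ± 1.05 and 7.38 ± 0.487 TPM (SD, n = 4), with means closer to *TaBRI1-NS* than to the mutant in all 3 genes. Every mutant library lay above every Cadenza library in *TaBRI1-A* and *TaBRI1-D*. In *TaBRI1-B* the mutant overlapped Cadenza, whose libraries were at 3.66 to 6.05 TPM. On the log2(TPM + 0.5) scale the differences were 0.57 (SE 0.12), 0.66 (SE 0.16) and 0.53 (SE 0.12) for the A, B and D homoeologues. With limma, which was fitted across all genes of these 8 libraries, the adjusted p were 0.052, 0.069 and 0.063, so 0 of 3 passed the threshold of 0.05 that 1.50% of all genes tested passed. All 3 had an unadjusted p under 0.05, and all 3 were called by limma voom on reads recovered from the TPM and in a fit of all 23 libraries. Over all genes, voom called 3799 and the fit of all 23 libraries 2209, against 1090 in the main fit. TPM counts transcripts of either allele and does not show which allele a library carries. In bulk tissue, fewer cells of a type and less RNA per cell cannot be told apart.

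Across the transcriptome, few genes passed the test. By limma, 1090 genes (1.50% of those tested) had an adjusted p of 0.05 or less and are called DEGs here, with 679 higher (0.932%) and 411 lower (0.564%) in *tabri1-a.3bd*. The median absolute log2 change was 0.85 among the higher DEGs and 1.01 among the lower DEGs, and 466 DEGs (0.640% of the genes tested) changed by more than 2-fold. A total of 13818 genes (19.0%) had an unadjusted p under 0.05. The split between directions depended on the scaling. Over all genes tested the log2 changes had a median of 0.09, and after median-of-ratios rescaling, which sets it to about 0, 385 of 1139 DEGs were higher and 754 lower. All 385 were among the 679, and the 411 lower DEGs were all called again. The size factors behind this rescaling lay between 1.03 and 1.08 in the mutant and between 0.92 and 1.01 in *TaBRI1-NS*. Fewer DEGs were called when any of the 8 libraries was left out, with the fewest, 275, in the absence of mutant replicate 3 and the most, 694, in the absence of mutant replicate 2, and 201 genes were called in each of these 8 fits, 104 higher and 97 lower.

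**Figure D1:**
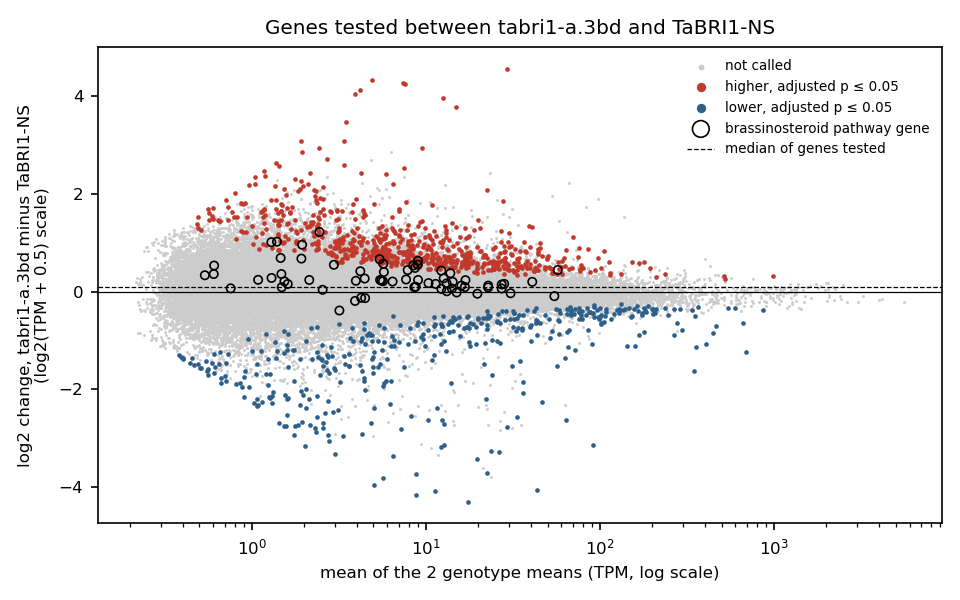
Log2 change of each gene tested, *tabri1-a.3bd* minus *TaBRI1-NS* on the log2(TPM + 0.5) scale, against the mean of the 2 genotype means in TPM on a log axis. Red points are the 679 higher and blue points the 411 lower DEGs, circles are BR pathway genes, most of them above 0 and near the dashed line, which is the median of all genes tested.

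The levels in Cadenza divided the DEGs. A DEG was placed on the Cadenza side when every Cadenza library lay beyond every *TaBRI1-NS* library in the direction of the mutant. In such a DEG the null segregant lay apart from both other genotypes. The mark does not ask whether the mutant matched Cadenza. It held for 480 DEGs (44.0%), against 12.0% of all genes tested. It held for 377 of the 679 higher DEGs (55.5%) and for 103 of the 411 lower DEGs (25.1%), against 15.7% of the genes with a positive and 5.90% of those with a negative change. The difference between directions depended on the scale. With marks on rescaled TPM, a setting added after seeing the data, 308 of these higher (45.4%) and 158 lower DEGs (38.4%) lay on the Cadenza side. On that scale 10.7% of all genes tested did. Of the DEGs called after rescaling, 183 higher (47.5%) and 337 lower (44.7%) lay there. In 541 DEGs (49.6%, against 3.06% of all genes tested) every mutant library lay beyond every library of both *TaBRI1-NS* and Cadenza, 277 higher and 264 lower. Both marks use the same *TaBRI1-NS* libraries as the calls themselves, and 90 DEGs carried both.

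Gene models annotated with low confidence were frequent among the higher DEGs. They made up 266 of the 679 higher DEGs (39.2%) and 59 of the 411 lower DEGs (14.4%), against 22.6% of the genes tested. Such models held between 11.3% and 11.8% of the TPM in the mutant libraries, between 10.0% and 10.9% in *TaBRI1-NS* and between 11.8% and 12.3% in Cadenza, without overlap between the mutant and *TaBRI1-NS*. The part of this difference in the counts of DEGs was not tested. With high-confidence models alone, 616 of 1076 DEGs were higher and 460 lower.

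Among 76 genes of the BR pathway, 66 passed the filter on low values and 1 was a DEG, at a share (1.52%) near that of all genes tested. The difference from *TaBRI1-NS* was above 0 in 58 of the 66 genes with a median of 0.22, against 62.4% of all genes and a median of 0.09. At the edge of the filter, *TaBR6ox1-D3* was kept with 0.488 to 1.15 TPM in the mutant and 0.166 to 0.590 TPM in *TaBRI1-NS*, and the co-receptor gene *TaBAK1-A1*, with genotype means of 0.205 and 0.185 TPM, was left out. The 10 genes not tested also include *TaDWARF4-3A*, *TaDWARF4-3B* and *TaDWARF4-3D*, which were at 0 in every library of the 3 genotypes. The study examined the same pathway in the same libraries, so these counts are no independent evidence.

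The upstream sterol genes had the smallest differences. *FACKEL*, *HYD1*, *DWF7*, *DWF5* and *DWF1* encode enzymes that lead to the sterol precursor of BRs. Their 15 genes had a median log2 difference of 0.08, which turned to -0.02 after rescaling. By limma 0 were DEGs, with 2 at an unadjusted p under 0.05, and 1 was called by voom. Among all genes tested 1.50% were DEGs and 19.0% had an unadjusted p under 0.05, and voom called 3799 genes. The lowest adjusted p was 0.068 for *TaDWF1-B* (log2 difference 0.44), with a mean of 66.1 TPM in the mutant and 48.4 TPM in *TaBRI1-NS*.

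The genes of BR synthesis proper stood higher. The difference was above 0 in 20 of 21 tested genes, with a median of 0.43 before and 0.32 after rescaling, and the mutant libraries did not overlap *TaBRI1-NS* in 9 of them, a separation found in 12.5% of all genes tested. The reductase gene *DET2* and the cytochrome P450 genes *D11* and *D2* contributed little to this, with log2 differences between -0.13 and 0.42 and adjusted p of 0.26 or more. The larger differences were in *BR6ox1*, *DWF4* and *CPD*.

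*BR6ox1* encodes the C-6 oxidase that forms castasterone, an active BR. *TaBR6ox1-B2* (TraesCS2B03G0038200, chromosome 2B) was the DEG of the pathway, at 3.35, 3.63, 4.50 and 2.92 TPM in *tabri1-a.3bd* and at 1.28, 0.721, 1.27 and 1.91 TPM in *TaBRI1-NS*. All mutant libraries also lay above all Cadenza libraries, which were at 1.65 ± 0.538 TPM (SD, n = 4). The gene rose by 1.22 on the log2 scale (SE 0.22, limma adjusted p = 0.036). These TPM rest on 95 to 157 recovered reads per library in the mutant and 24 to 74 in *TaBRI1-NS*. The call was present in 1 of the 8 fits that left out a library, with adjusted p of up to 0.096 (without *tabri1-a.3bd* replicate 3), and it was absent with no filter on low values. *TaBR6ox1-A1* was at 2.05 ± 0.611 against 0.741 ± 0.165 TPM (SD, n = 4 each, log2 difference 1.02, limma adjusted p = 0.052). Its highest Cadenza library, at 1.50 TPM, lay above its lowest mutant library, at 1.48 TPM. *TaBR6ox1-A2* was at 1.91 ± 0.590 against 0.681 ± 0.145 TPM (SD, n = 4 each, log2 difference 1.01, limma adjusted p = 0.055). *TaBR6ox1-D1*, *TaBR6ox1-D2* and *TaBR6ox1-D3* were between 1.87 and 1.99 times as high in the mutant by mean TPM, with limma adjusted p of 0.14 to 0.29. The libraries of the genotypes overlapped in *TaBR6ox1-D3* and in none of the other 5 tested genes of this family. Such a separation was found in 12.5% of all genes tested. The other paralogues *TaBR6ox1-B1*, *TaBR6ox1-A3* and *TaBR6ox1-B3* reached at most 0.202 TPM in any library of the comparison. Homoeologues and paralogues of this family can share reads, and how such reads were counted is not given in the sources used here, so the values of single copies are uncertain.

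*DWF4* encodes the C-22 hydroxylase of an early and often limiting step. *TaDWARF4-4D* (TraesCS4D03G0567600, 4D) was at 1.93, 3.41, 3.23 and 2.37 TPM in the mutant and at 1.42, 1.04, 0.774 and 1.40 TPM in *TaBRI1-NS*. The lowest mutant library lay above the highest libraries of *TaBRI1-NS* and Cadenza. Its log2 difference of 0.96 (SE 0.22) had a limma adjusted p of 0.063, and over the alternatives it lay between 0.015 and 0.15. *TaDWARF4-4B* was at 3.61 ± 0.880 against 2.31 ± 0.548 TPM (SD, n = 4 each, limma adjusted p = 0.18), with overlapping libraries. *TaDWARF4-4A* was at 0.741 ± 0.119 against 0.468 ± 0.0829 TPM (SD, n = 4 each, limma adjusted p = 0.37).

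*CPD* encodes the C-3 oxidase of the pathway. *TaCPD1-A* (TraesCS5A03G0368600, 5A) was at 12.7, 8.12, 13.3 and 10.4 TPM in the mutant and at 6.92, 6.05, 6.60 and 8.07 TPM in *TaBRI1-NS*. The groups were separated by a narrow margin, between 8.07 and 8.12 TPM. Log2 differences were 0.63 for *TaCPD1-A*, 0.43 for *TaCPD1-B* and 0.55 for *TaCPD1-D*, with limma adjusted p of 0.085, 0.18 and 0.096. All 3 had an unadjusted p under 0.05. *TaCPD1-A* passed in a single fit that left out a library, with an adjusted p of 0.048. Cadenza libraries, at 7.1 to 9.8 TPM for *TaCPD1-A* and 9.98 to 13.2 TPM for *TaCPD1-B*, overlapped the mutant in both genes. In *TaCPD1-D* every mutant library lay above every library of *TaBRI1-NS* and Cadenza.

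**Figure D2:**
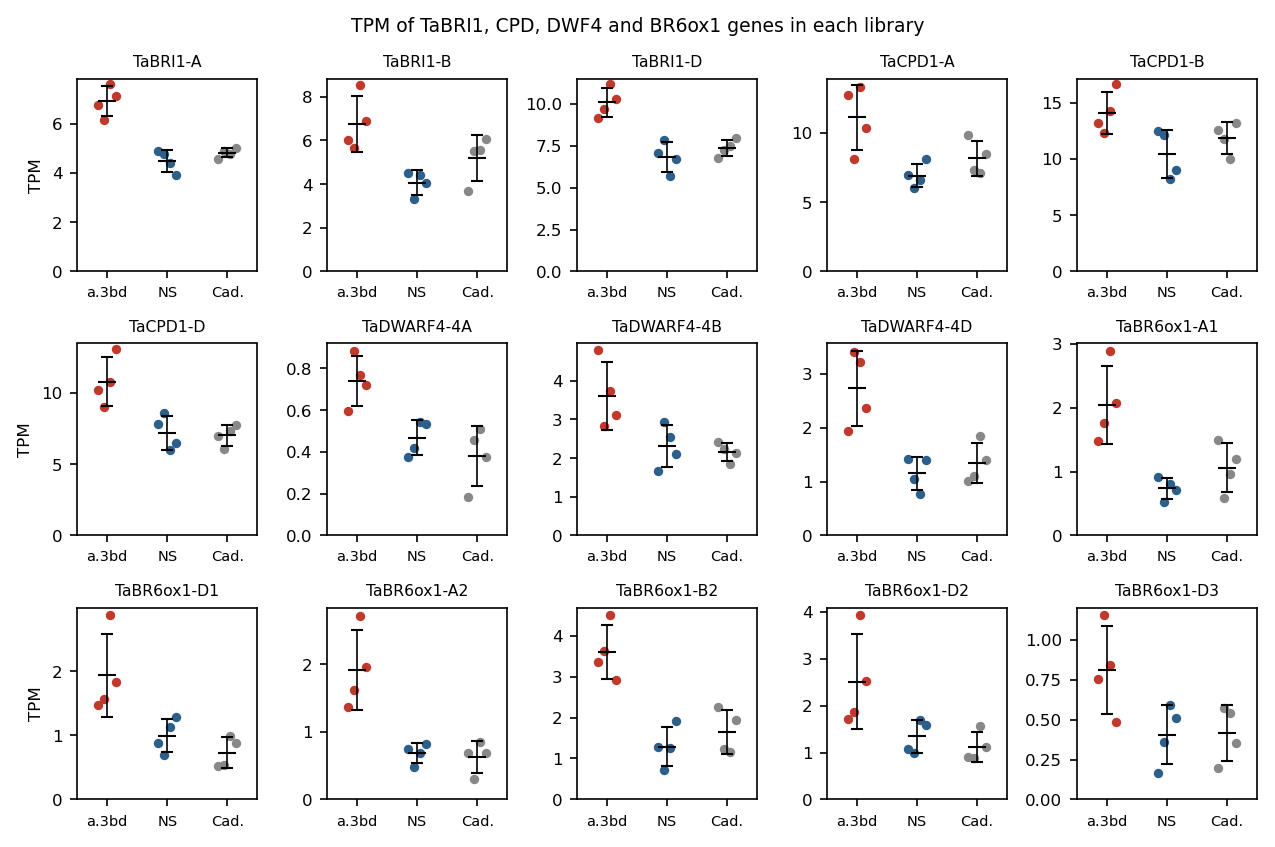
TPM of the tested *TaBRI1*, *CPD*, *DWF4* and *BR6ox1* genes in each library of *tabri1-a.3bd* (a.3bd, red), *TaBRI1-NS* (NS, blue) and Cadenza (Cad., grey), with the mean and SD of 4 libraries as black bars and every axis starting at 0. In *TaBR6ox1-B2* the mutant libraries, from 2.92 to 4.50 TPM, lie above all others.

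The lists of the receptor and of the signalling steps held no DEG. With 1.50% DEGs among all genes tested, a count of 0 in lists this short is near that share. An unadjusted p under 0.05 was found in 19.0% of all genes tested. The receptor complex list, which holds *TaBRI1* with the co-receptor gene *BAK1* and the inhibitor gene *BKI1*, had 0 DEGs among 11 tested genes by limma, with 4 at an unadjusted p under 0.05 and the 3 *TaBRI1* genes called by voom. The 5 tested *BAK1* genes had a median log2 difference of 0.23 and adjusted p of 0.43 or more. *BKI1* was the family of the pathway with the lowest median, at -0.19, and *TaBKI1-B* had a log2 difference of -0.39 (limma adjusted p = 0.25). The 19 tested signalling genes also held 0 DEGs by limma and by voom and 3 genes at an unadjusted p under 0.05, with a median log2 difference of 0.24 before and 0.13 after rescaling and 18 values above 0. The BZR transcription factor gene *TaBZR-A1* (log2 difference 0.38, adjusted p = 0.14) and the kinase genes *TaBSK1-B* and *TaBSK1-D* (0.48 and 0.44, adjusted p = 0.15 each) were the members nearest to the threshold. The 3 *BIN2* genes had a median log2 difference of 0.17 and adjusted p of 0.38 or more. The count of DEGs in the whole pathway depended on the test. It was 5 with high-confidence models alone, 10 by voom and 0 with no filter on low values. Over all genes these fits called 1076, 3799 and 447.

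Among genes annotated to fatty acid and wax synthesis, those that passed the test were all lower in *tabri1-a.3bd*. These lists and the functional lists that follow come from an enrichment that the study ran on its own DEGs of these libraries. The counts thus describe which members passed here and are no independent evidence of a direction. Leaving aside the lists drawn from the study's dwarf mutants, 119 of their 120 tested genes had an unadjusted p under 0.05 by limma. The share among all genes tested was 19.0%, so the lists hold members already changed and shares of all genes are no baseline for them. Of 20 tested genes annotated to fatty acid biosynthesis, 6 fell and 0 rose, with a median log2 difference of -0.91, where 0.564% of all genes tested were lower and 0.932% higher DEGs. Between 1 and 4 of this list fell without 1 library, and by voom 12 fell and 2 rose. Over all genes voom called 2169 lower and 1630 higher. Differences were above 0 in 2 members, TraesCS4B03G0082200 (1.32 ± 0.397 against 0.571 ± 0.188 TPM, SD, n = 4 each, limma adjusted p = 0.12) and TraesCS4B03G0082800 (3.84 ± 1.12 against 2.11 ± 0.261 TPM, adjusted p = 0.099), with the mutant libraries above all others in both. The very-long-chain 3-hydroxyacyl-CoA dehydratases remove water in each cycle that lengthens fatty acids for waxes and sphingolipids. Of the 5 in their list 4 fell and 0 rose, beside 0.564% lower DEGs among all genes tested, and the median was -1.04. TraesCS3B03G0208300 was at 1.71, 1.61, 1.13 and 1.32 TPM in the mutant and at 3.70, 4.97, 3.89 and 4.76 TPM in *TaBRI1-NS*. It fell by 1.31 on the log2 scale (SE 0.16, limma adjusted p = 0.0084) and was called in all 8 fits without 1 library. Its Cadenza libraries, at 3.80 ± 0.868 TPM (SD, n = 4), lay above all mutant libraries. TraesCS3A03G0165500 fell from 5.22 ± 0.548 to 2.37 ± 0.504 TPM (SD, n = 4 each, limma adjusted p = 0.02). TraesCS6B03G1053800 fell from 9.60 ± 1.93 to 4.39 ± 0.752 TPM (SD, n = 4 each, limma adjusted p = 0.024), and TraesCS3D03G0148900 from 3.39 ± 0.822 to 1.06 ± 0.665 TPM (adjusted p = 0.049). TraesCS7B03G0296800, a further member of the fatty acid list, fell from 1.78 ± 0.278 to 0.353 ± 0.310 TPM (SD, n = 4 each, limma adjusted p = 0.039). Without 1 library, between 1 and 4 genes of the dehydratase list were called.

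Fatty acyl-CoA reductases make the primary alcohols of leaf wax. In this list 2 of 5 genes fell and 0 rose by limma, beside 0.564% lower DEGs among all genes tested. By voom 4 fell and 1 rose, beside 2169 lower and 1630 higher over all genes. The member with a difference above 0 was TraesCS7A03G0214000, at 2.23 ± 0.459 against 1.07 ± 0.155 TPM (SD, n = 4 each, log2 difference 0.79, limma adjusted p = 0.069), with the mutant libraries above all of *TaBRI1-NS* and Cadenza. TraesCS1D03G0041600 was at 0.413, 0.469, 0.564 and 0.442 TPM in the mutant and at 1.84, 2.32, 1.43 and 1.58 TPM in *TaBRI1-NS*. Its mean was 3.80 times as high in *TaBRI1-NS* (log2 change -1.23, SE 0.19, limma adjusted p = 0.02), and Cadenza was at 1.73 ± 0.182 TPM (SD, n = 4). TraesCS1D03G0026400 fell from 8.35 ± 2.86 to 2.61 ± 0.820 TPM (SD, n = 4 each, limma adjusted p = 0.036), with Cadenza in between at 5.20 ± 0.279 TPM. Without 1 library, between 0 and 2 genes of this list were called.

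Flavonoid genes make phenolic pigments and UV-screening compounds. Of the 5 in their list 4 fell and 0 rose, beside 0.564% lower DEGs among all genes tested. The median log2 difference was -1.01. TraesCS2B03G0080400 was the most abundant, at 35.5, 32.5, 27.4 and 25.3 TPM in the mutant and at 63.8, 60.0, 56.2 and 46.1 TPM in *TaBRI1-NS* (log2 change -0.90, SE 0.13, limma adjusted p = 0.017). TraesCS2D03G0045100 was listed at 0 in 3 mutant libraries and at 0.069 TPM in the other, against 0.864 to 2.06 TPM in *TaBRI1-NS* and 1.10 to 1.61 TPM in Cadenza. TraesCS2A03G0052400 fell from 7.14 ± 3.35 to 1.69 ± 0.737 TPM (SD, n = 4 each, limma adjusted p = 0.045) and TraesCS2D03G0064300 from 6.68 ± 1.36 to 3.07 ± 0.691 TPM (adjusted p = 0.034). In all 4 genes every mutant library lay below every library of both *TaBRI1-NS* and Cadenza. Between 0 and 3 of them were called without 1 library. The direction of these lipid and flavonoid lists was the same after rescaling, with medians between -1.14 and -0.97.

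**Figure D3:**
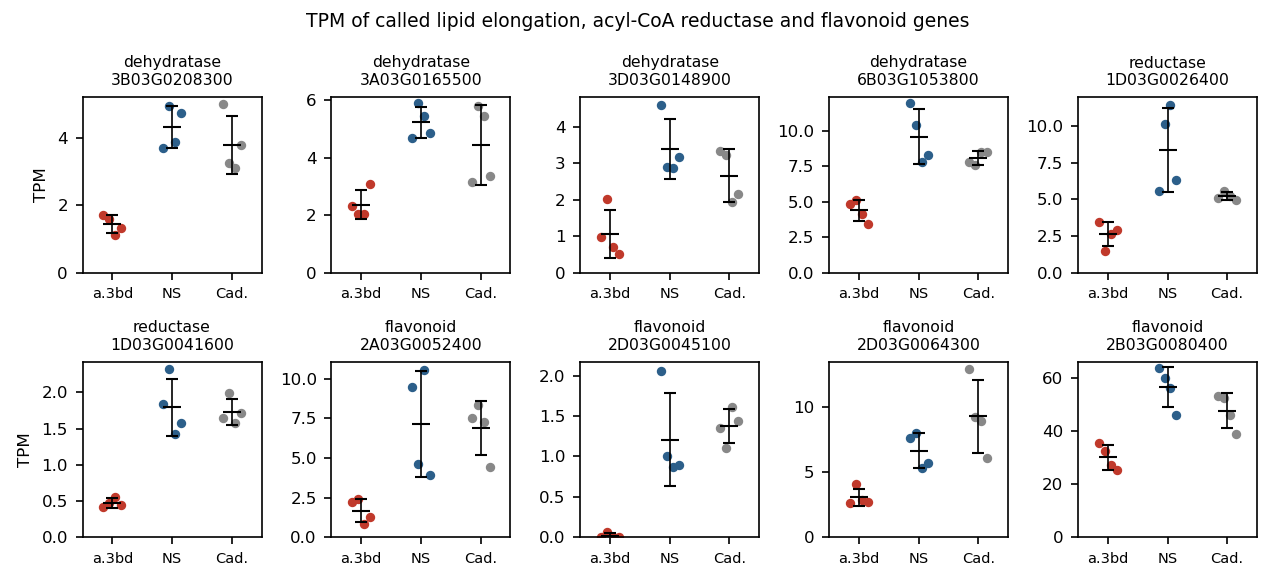
TPM of the called 3-hydroxyacyl-CoA dehydratase, fatty acyl-CoA reductase and flavonoid genes in each library, with the mean and SD of 4 libraries as black bars, every axis starting at 0 and identifiers without their prefix. The mutant libraries (red) lie below all *TaBRI1-NS* libraries (blue) in all 10 genes and below all Cadenza libraries (grey) in all but 3D03G0148900.

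In the lists of organelles and translation a minority of the genes passed the test, most of them lower and by small amounts, beside 0.564% lower and 0.932% higher DEGs among all genes tested. Of 17 tested genes annotated to the chloroplast thylakoid membrane 3 fell and 0 rose (median log2 difference -0.30), with 0 to 2 falling without 1 library and 16 by voom, and of 16 annotated to the mitochondrial inner membrane 3 fell and 1 rose (median -0.31). Of 18 genes annotated to an outer membrane 3 fell (median -0.31), all of them also in the thylakoid list. TraesCS3B03G0832600 of the mitochondrial list was at 492, 500, 458 and 489 TPM in the mutant and at 590, 600, 662 and 583 TPM in *TaBRI1-NS* (log2 change -0.33, SE 0.06, limma adjusted p = 0.031). In Cadenza it was at 501, 468, 455 and 538 TPM, the level of the mutant. All 4 DEGs of the mitochondrial list lay on the Cadenza side. TraesCS2D03G0974600 of the thylakoid list behaved otherwise, at 16.1 ± 1.43 TPM in the mutant, 25.6 ± 2.37 in *TaBRI1-NS* and 24.2 ± 1.54 in Cadenza (SD, n = 4 each, limma adjusted p = 0.019). Among 6 genes annotated to ribosome binding 2 fell, and TraesCS2B03G0505400 was at 292 ± 12.3 against 380 ± 26.1 TPM (SD, n = 4 each, limma adjusted p = 0.028), with Cadenza at 335 ± 10.6 TPM. Differences were above 0 in 2 genes of this list, and between 0 and 2 fell without 1 library. Of the mitochondrial list 8 genes fell after rescaling, 13 by voom and between 0 and 1 without 1 library. Of the outer membrane list 5 fell after rescaling, 17 by voom and between 0 and 2 without 1 library. Over all genes 754 were lower after rescaling and 2169 by voom, against 411 in the main fit.

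Lists of iron-sulfur proteins and oxidoreductase complexes held DEGs of both directions, beside 0.564% lower and 0.932% higher among all genes tested. Of 8 genes with a 2Fe-2S cluster 3 fell and 1 rose, and of 11 genes of oxidoreductase complexes 1 fell and 2 rose. The falls depended on the fit. Without 1 library 0 to 2 of the 2Fe-2S genes and 0 to 1 of the oxidoreductase genes fell, by voom 7 and 8, and after rescaling 4 and 5. Over all genes 2169 were lower by voom and 754 after rescaling. The 2 oxidoreductase genes that rose did so in all of these fits. TraesCS1D03G0960100 fell from 3.87 ± 0.744 to 1.20 ± 0.538 TPM (SD, n = 4 each, limma adjusted p = 0.033). The genes that rose all lie on chromosome 6B. TraesCS6B03G1161500 was at 10.1, 7.98, 12.9 and 7.93 TPM in the mutant, at 2.06, 2.81, 3.28 and 4.20 TPM in *TaBRI1-NS* and at 3.88, 3.02, 4.25 and 6.05 TPM in Cadenza. It rose by 1.52 on the log2 scale (SE 0.21, limma adjusted p = 0.014), above both control genotypes, and was called in all 8 fits without 1 library. TraesCS6B03G0628000 was at 63.0, 56.9, 49.8 and 55.0 TPM in the mutant against 20.6, 18.3, 18.5 and 32.2 TPM in *TaBRI1-NS* (log2 change 1.34, SE 0.17, limma adjusted p = 0.0098). Cadenza was at 44.8 ± 7.23 TPM (SD, n = 4), so this gene lay on the Cadenza side. TraesCS6B03G0646900 did so too, with means of 10.5 TPM in the mutant, 5.17 TPM in *TaBRI1-NS* and 11.4 TPM in Cadenza (limma adjusted p = 0.029).

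The listed chromatin and transcription genes mostly had higher means than in *TaBRI1-NS* without passing the test. ATP-dependent chromatin remodellers move nucleosomes, histone acetyltransferase complexes acetylate histones, and cohesin holds chromatids together. Their lists had 0 DEGs among 9, 7 and 4 tested genes, with median log2 differences of 0.45, 0.52 and 0.52. Differences were above 0 in all of them except TraesCS6D03G0611400, an acetyltransferase complex gene at 9.32 ± 1.61 against 13.7 ± 1.01 TPM (SD, n = 4 each, limma adjusted p = 0.073). Every gene of these 3 lists had an unadjusted p under 0.05 by limma. By voom 9, 6 and 3 were called higher, beside 1630 over all genes. On the Cadenza side lay 9, 7 and 3 genes of these lists, beside 12.0% of all genes tested. Since the lists were drawn from the study's DEGs, these counts do not describe chromatin genes as a class. In the lists of transcription coregulators (12 genes) and transcription elongation (7 genes) 1 gene rose in each. TraesCS1D03G0772900 of the elongation list was at 15.9 ± 0.883 TPM in the mutant, 10.3 ± 1.26 in *TaBRI1-NS* and 15.3 ± 0.741 in Cadenza (SD, n = 4 each, limma adjusted p = 0.033). TraesCS7A03G1313800 of the coregulator list was at 11.1 ± 1.15, 7.20 ± 0.866 and 10.3 ± 0.603 TPM (SD, n = 4 each, limma adjusted p = 0.048). Both lay on the Cadenza side and were called in none of the 8 fits without 1 library, and the coregulator gene was not called after rescaling. The list of phosphoribosylformylglycinamidine synthase, an enzyme of purine synthesis, had 3 genes with a median log2 difference of 0.53 and 0 DEGs by limma, with all 3 at an unadjusted p under 0.05 and 2 called by voom.

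Lists that the study drew from genes changed in both of its dwarf mutants held no DEG of *tabri1-a.3bd*. They cover invertases (beta-fructofuranosidases) that split sucrose, beta-glucosidases of the defence compound DIMBOA, chlorophyllide a oxygenase, acid phosphatases, oligopeptide transporters and 4 other terms. Of 96 tested genes 0 passed and 33 had an unadjusted p under 0.05 by limma, with a median log2 difference of -0.04. Among all genes tested 1.50% passed and 19.0% had an unadjusted p under 0.05. By voom 2 were called higher and 10 lower, beside 1630 and 2169 over all genes. The lowest adjusted p was 0.062, in the invertase list, whose 10 genes were evenly divided in direction. Log2 differences in the acid phosphatase list reached 1.38, with an adjusted p of at least 0.082. These genes were chosen by the study with the same *TaBRI1-NS* libraries, and whether DEGs of *tabri1-a.3bd* were removed from them is not given in the sources used here, so the count may be set by that choice.

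The largest changes that set the mutant apart from both *TaBRI1-NS* and Cadenza were in genes without a name in the files. TraesCS1B03G0501600 was at 61.4, 32.5, 85.3 and 43.4 TPM in the mutant, at 0, 3.14, 0.999 and 8.73 TPM in *TaBRI1-NS* and at 3.19, 3.86, 5.41 and 5.68 TPM in Cadenza. Its mean was 17.3 times as high in the mutant as in *TaBRI1-NS* (log2 change 4.56, SE 0.75, limma adjusted p = 0.026), and it was called in 3 of the 8 fits without 1 library. TraesCS7D03G0377500LC was at 20.6, 8.10, 14.3 and 15.1 TPM in the mutant, at 0.171 to 0.439 TPM in *TaBRI1-NS* and at 2.21 to 4.91 TPM in Cadenza. It rose by 4.26 on the log2 scale (SE 0.26, limma adjusted p = 0.00015) and was called in all 8 of these fits. This gene also lay on the Cadenza side, with means of 14.5 TPM in the mutant, 0.255 TPM in *TaBRI1-NS* and 3.62 TPM in Cadenza. Among the decreases, TraesCS5B03G1087800 was at 6.87, 0.352, 0.993 and 0 TPM in the mutant against 47.5, 13.1, 48.5 and 21.8 TPM in *TaBRI1-NS* (log2 change -4.30, SE 0.76, limma adjusted p = 0.032). TraesCS5A03G1037300 was at 2.89, 0.752, 0 and 0 TPM against 29.5, 5.26, 39.2 and 12.3 TPM (log2 change -4.08, SE 0.73, limma adjusted p = 0.033). Both spread widely among the *TaBRI1-NS* libraries, and they were called in 1 and 2 of the 8 fits without 1 library.

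Some DEGs were listed at 0 throughout a genotype. There were 14 at 0 in all 4 *TaBRI1-NS* libraries, of which 6 were above 0 in every Cadenza library, and 18 at 0 in all 4 mutant libraries, of which 10 were above 0 in every Cadenza library. Several of the first kind lie near each other on chromosome 5B and were picked after their values were seen. TraesCS5B03G1177500LC was at 13.0, 9.15, 10.6 and 6.31 TPM in the mutant, 0 in every *TaBRI1-NS* library and 27.7, 31.8, 25.3 and 25.3 TPM in Cadenza (limma adjusted p = 3.2e-05). TraesCS5B03G1159400LC was at 7.86 ± 1.08 TPM in the mutant and 17.4 ± 3.27 TPM in Cadenza (SD, n = 4 each), and TraesCS5B03G1179600LC at 3.82 ± 0.924 and 7.76 ± 0.584 TPM, both at 0 in *TaBRI1-NS*. The mutant mean was thus below that of Cadenza in all 3. TraesCS5B03G1057400LC and TraesCS5B03G1092400, also on 5B and at 0 in *TaBRI1-NS*, went the other way. Their means were 2.34 and 1.13 TPM in the mutant and 0 and 0.0072 TPM in Cadenza. Between TraesCS5B03G1145100LC and TraesCS5B03G1179600LC in identifier order, 80 genes were tested, of which 5 were higher DEGs and 2 lower DEGs. Over all genes tested the shares were 0.932% and 0.564%, and the ends of this interval were chosen after the values were seen. TraesCS5B03G1198400, beyond this interval, was at 0 in every mutant library, at 4.07 ± 1.26 TPM in *TaBRI1-NS* and at 2.86 ± 1.35 TPM in Cadenza (SD, n = 4 each, limma adjusted p = 0.00029).

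Higher DEGs were most frequent on chromosome 6B. It held 61 of the 679 higher DEGs (8.98%) and 4.36% of the genes tested, so 1.92% of its tested genes were higher DEGs, against 0.55% to 1.32% on the other chromosomes. Of these 61 DEGs 50 lay on the Cadenza side and 7 others set the mutant apart from both control genotypes. Lower DEGs made up 0.66% of the tested genes on 6B and 0.339% to 0.914% over all assigned chromosomes, with the highest share on 3D. By subgenome, 0.895%, 1.03% and 0.86% of tested genes were higher DEGs on A, B and D, and 0.555%, 0.487% and 0.645% were lower DEGs.

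**Figure D4:**
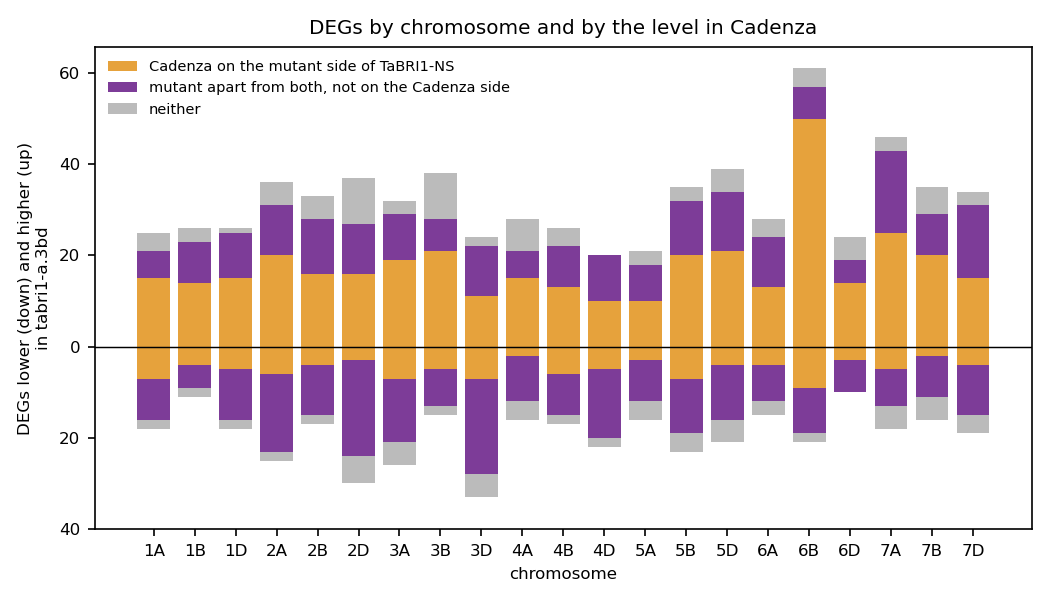
Number of DEGs on each chromosome, higher in *tabri1-a.3bd* above the line and lower below it, coloured by whether Cadenza lay on the mutant side of *TaBRI1-NS*. Chromosome 6B has 61 higher DEGs, 50 of them on the Cadenza side, and the lower DEGs show no such peak.

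Neighbouring DEGs of like kind formed 3 segments in the order of identifiers, each with at least 5 DEGs and at most 5 other tested genes between neighbours. On 6B, 6 of the 11 tested genes from TraesCS6B03G0633100 to TraesCS6B03G0637300 were higher DEGs on the Cadenza side. So were 20 of the 46 from TraesCS6B03G0686500 to TraesCS6B03G0706700. Over all genes tested 0.932% were higher DEGs, but the segments were defined by their density of such DEGs. The DEGs of the longer segment had log2 changes of 0.61 to 1.19. In 44 of its 46 genes the difference was above 0, against 62.4% of all genes tested. Counting the 40 of its genes whose mean in Cadenza reached 1 TPM, the median ratio to Cadenza was 1.02 in the mutant and 0.548 in *TaBRI1-NS*. TraesCS6B03G0702000LC in this segment was at 42.2, 39.5, 44.1 and 41.7 TPM in the mutant, 18.3, 15.1, 21.1 and 18.2 TPM in *TaBRI1-NS* and 41.9, 44.8, 42.3 and 44.9 TPM in Cadenza. In the shorter segment the median ratios to Cadenza, over 9 such genes, were 1.22 in the mutant and 0.602 in *TaBRI1-NS*. TraesCS6B03G0633800LC there was at 15.4 to 20.3 TPM in the mutant, 3.73 to 6.33 TPM in *TaBRI1-NS* and 9.07 to 20.3 TPM in Cadenza. The DEGs that define both segments were picked by their levels in these same libraries. The ratios therefore describe the segments and are no separate evidence about *TaBRI1-NS*.

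The segment on chromosome 7A was of another kind. From TraesCS7A03G1381400 to TraesCS7A03G1388200, 7 of 10 tested genes were higher DEGs, against 0.932% of all genes tested. In 6 of the 7 the mutant stood above both other genotypes without Cadenza lying on its side. TraesCS7A03G1385000 was at 10.7, 8.10, 9.63 and 9.44 TPM in the mutant, at 4.27, 3.88, 3.83 and 2.96 TPM in *TaBRI1-NS* and at 6.18, 2.73, 4.47 and 3.33 TPM in Cadenza (log2 change 1.24, limma adjusted p = 0.0048). The median ratio to Cadenza over its 9 genes with at least 1 TPM there was 1.58 in the mutant and 0.797 in *TaBRI1-NS*. The DEGs that define this segment were likewise picked by their levels in these libraries.

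**Figure D5:**
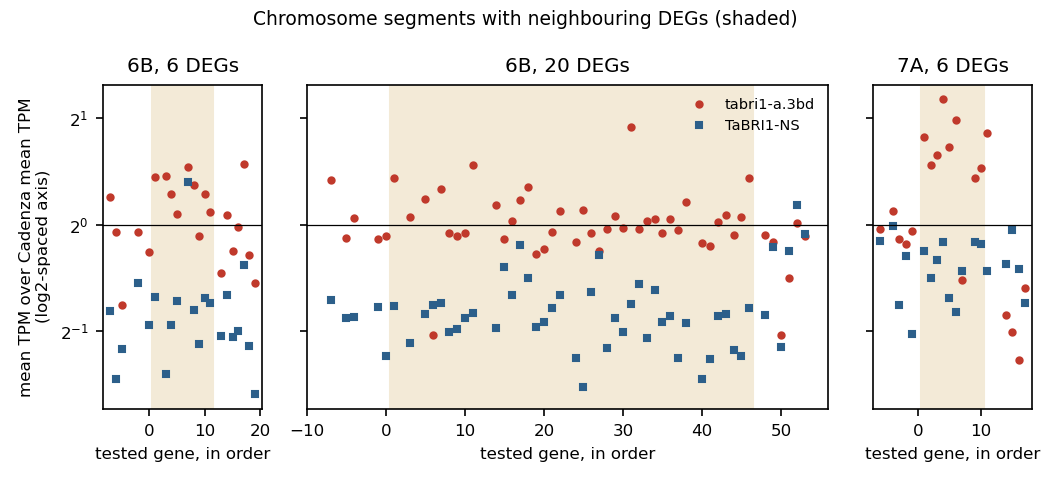
Mean TPM of *tabri1-a.3bd* (red circles) and *TaBRI1-NS* (blue squares) relative to the Cadenza mean, on a log-spaced axis, for genes in identifier order whose mean in Cadenza reached 1 TPM, in the 3 segments (shaded) and 8 tested genes to each side. In the 6B segments the mutant lies near 1 and *TaBRI1-NS* mostly below it, while in the 7A segment, titled with its 6 DEGs that are not on the Cadenza side, most mutant values lie above 1.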

How the data were processed

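RNA-seq of wheat shoots was deposited as TPM per gene and library. Per the labels and the study's methods, read pairs passed through Trimmomatic 0.39 for trimming, STAR 2.7.8a for mapping to IWGSC RefSeq v2.1 and HTSeq 0.11.3 for counting, and the authors deposited TPM for each replicate on its own. The HTSeq options and gene lengths are not given in the sources used here. TPM makes the values of a library relative to its total, so a change in abundant genes shifts all others.

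Log2(TPM + 0.5) values of the 8 libraries were fitted with limma 3.58.1 (eBayes with trend and robust, R 4.3.3) without covariates, for genes with at least 0.5 TPM in at least 3 libraries. Exactly 3 libraries reached that level in 3366 genes, and 2 in 4410 genes, which were left out. P-values were adjusted by Benjamini-Hochberg over the 72865 genes. Log2 changes on this scale understate those of low genes. The table holds TPM in place of the counts that the authors tested with DESeq2. Depth was recovered from the TPM, since in each library a gene at low level steps by what a single read is worth (tolerance 0.02 reads). Reads were recovered for 104039 of 104040 genes above 0 in at least 4 libraries. They summed to between 27632875 and 30318472 in the mutant, 27457017 and 37267218 in *TaBRI1-NS* and 29621115 and 38299387 in Cadenza, and cover counting error only. The fit and the recovery were tested on simulated data. There the fit called 1 of 67 genes given an absolute log2 change of 0.5. It called 20 of 67 given a change of 1 and 49 of 66 given a change of 2. All other genes were left unchanged in the simulation, whereas 1090 genes were DEGs in the data. The adjusted p depends on how many genes change, so these rates need not hold for the data. A gene that was not called may thus still differ in level, above all where the difference is near 0.5 or smaller.

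The text names the BR genes *TaBRI1*, *DWF4*, *CPD* and *BR6ox1* and any other that was called, up to 4 called genes per functional list by size of change, the 2 largest rises and falls apart from both control genotypes, and segments. Exceptions are marked. The members, lists and tests were chosen with earlier results of these data known. BR genes were paired with identifiers by the study's supplement, in which *TaBZR-A2* has a 3B and *TaBZR-B2* a 3A identifier. Identifiers of the table matched 0 entries of the RefSeq gene table given with the data, so no sequence is shown. Alternatives were other pseudocounts, filters, scalings, weights, models and left-out libraries. Python 3.11.15, pandas 2.3.3 and numpy 2.4.6 were used.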

Additional observations from a re-analysis of the deposited data

Results flagged for a closer look

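In 7 of 95 groups of 4 libraries, 1 library stood apart from the other 3 by Dixon's test, where chance gives about 1 in 20. TraesCS2D03G0045100 was at 0.069 TPM, or 2 reads, in *tabri1-a.3bd* replicate 2 and at 0 in the others. With the others at 0, any value above 0 would have been flagged. The same gene was at 2.06 TPM in *TaBRI1-NS* replicate 1 against 0.864 to 1.00 TPM. TraesCS2D03G0064300 was at 4.10 TPM in *tabri1-a.3bd* replicate 2 against 2.61 to 2.86 TPM. TraesCS3D03G0820700 was at 18.1 TPM in *tabri1-a.3bd* replicate 3 against 23.9 to 24.9 TPM, and TraesCS5B03G1159400LC at 6.24 TPM in the same library against 8.32 to 8.55 TPM. TraesCS6B03G0628000 was at 32.3 TPM in *TaBRI1-NS* replicate 4 against 18.3 to 20.6 TPM. TraesCS5B03G1087800 was at 6.87 TPM in *tabri1-a.3bd* replicate 1 against 0 to 0.993 TPM.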

How the results depend on the processing

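Of 50 named genes that were tested, each kept its direction under every alternative in which it passed the filter, and the number of calls did not hold. With a filter of 2 TPM and with high-confidence models fewer of them were tested, and other genes named with values were not followed in this way. DEGs numbered 447 with no filter on low values (259 higher, 188 lower), 2209 with all 23 libraries in 1 fit (1587 and 622), 3799 by voom on the recovered reads (1630 and 2169, with 889 of the 1090 DEGs among them, all in the same direction) and 466 when a change of more than 2-fold was required (256 and 210). After rescaling, 385 were higher and 754 lower. Of the DEGs, 191, 1119, 1357 and 156 lay on the Cadenza side with no filter, all libraries, voom and the 2-fold limit, and 466 by rescaled TPM. *TaBRI1* homoeologues called were 2 at a filter of 2 TPM, 1 with high-confidence models, 3 with all libraries and 3 by voom. BR pathway genes called were 0 with no filter, 3 at 2 TPM, 5 with high-confidence models, 2 with array weights, 4 with all libraries and 10 by voom. The causes were not tested. Other pseudocounts moved no count of all DEGs by over 1.5 times.

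Leaving out 1 library leaves fewer samples to test. DEGs numbered 546, 694, 275 and 341 without replicates 1 to 4 of *tabri1-a.3bd* and 498, 383, 282 and 410 without those of *TaBRI1-NS*. Higher DEGs then numbered 142 to 441, lower DEGs 116 to 253, those on the Cadenza side 110 to 272, BR genes 0 to 1 and *TaBRI1* homoeologues 0. Replicate numbers do not pair these samples (correlations of same-numbered libraries 0.003 to 0.034). With the replicate number as a block, 247 DEGs were called (111 higher, 136 lower, 90 on the Cadenza side), 215 of them among the 1090, and 0 BR genes. The depth limits low genes such as *TaBR6ox1-B2*, at 24 to 157 reads.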
